A study of Oryza sativa with 6 samples.

Results

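PIP5K and OsITPK3 are rice genes for enzymes that add phosphate to inositol compounds, one to a membrane lipid and the other to a soluble inositol phosphate. They were picked by name, as probe sets annotated to exactly 1 gene whose symbol or RefSeq synonym is PIP5K or OsITPK3, and are 2 of the 14662 genes measured on 41770 probe sets. Each gene has 1 probe set, and the files list them by the gene numbers LOC4333833 (PIP5K, synonym PIPK1) and LOC4333967 (OsITPK3). RefSeq places both on chromosome 3 with 147 annotated genes between them, so they are not neighbours. They were chosen with their signals at 0 h, 6 h and 24 h already known. Their differences between times are therefore given as a description with a standard error and without a test.

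Plants keep a small pool of phosphoinositides in the plasma membrane. PIP5K makes phosphatidylinositol bisphosphate, a lipid known for guiding exocytosis, actin and root hair growth and for serving as substrate of phospholipase C. Inositol released or made anew is phosphorylated step by step by IPK2, ITPK and IPK1 kinases to phytate and then to inositol pyrophosphates, which SPX proteins read as a measure of cellular phosphate.

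Roots of 3-week-old rice, cultivar Swarna MTU7029, were sampled at 0 h as untreated control and at 6 h and 24 h after a suspension of the basidiomycete yeast Rhodotorula mucilaginosa JGTA-S1 was added, with 2 arrays per time and 6 arrays in all. The values are log2 signals of whole-root RNA, in which fewer cells of a type and less RNA per cell cannot be told apart. Roots left without yeast for 6 h or 24 h are not among these arrays, so yeast and elapsed time cannot be told apart. Whether both arrays of a time stand for separate plants is not in the labels. Standard errors and p-values thus cover only array-to-array spread, possibly technical, and the small number of arrays limits the precision.

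Array medians lay between 2.79 and 2.93, and signals were more widely spread over probe sets on the treated arrays (SD 1.62 to 1.82) than on the control arrays (SD 1.46 and 1.505). The control pair was less alike (Pearson r = 0.868 over probe sets) than the 6 h pair (0.936) or the 24 h pair (0.976), and the second 6 h array stood apart from the other treated arrays. It correlated at 0.93 and 0.933 with the 24 h arrays, while the first 6 h array did so at 0.978 and 0.971. These values describe the arrays, and results without single arrays are given beside those that rest on them. The 5 root markers lay at percentile 80.7 or higher of every array. The silicon efflux transporter Lsi2 differed by 0.11 at 6 h and -0.07 at 24 h, while OsIRT1, OsPT2, PIP2-3 and OsAMT1;2 differed by 0.72 to 1.28 at 6 h and by -0.08 to 0.99 at 24 h. The 4 green shoot markers spanned percentiles 33.3 to 93.6. Summed on the linear scale and given as log2, where Lsi2 weighs most, root markers lay at 9.34 to 9.49 at 0 h, 9.68 to 9.78 at 6 h and 9.26 to 9.60 at 24 h, and green markers at 6.32 to 6.91, 5.69 to 6.67 and 6.40 to 6.92 at these times.

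PIP5K had a far higher signal at both times after the yeast than before it. The log2 signal was 3.70 and 2.67 on the 0 h arrays, 6.32 and 6.09 on the 6 h arrays and 6.14 and 5.72 on the 24 h arrays. The 4 treated arrays lay within 0.60 of each other, and the lowest of them stood 2.03 above the higher control array, so the treated and control arrays did not overlap. On each array's own scale, PIP5K ranked at percentile 71.4 and 40.2 of all probe sets at 0 h, at 92.1 and 92.6 at 6 h and at 91.5 and 88.8 at 24 h. The gene thus stood high on each treated array, and below the middle of the array on the dimmer control.

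**Figure D1:**
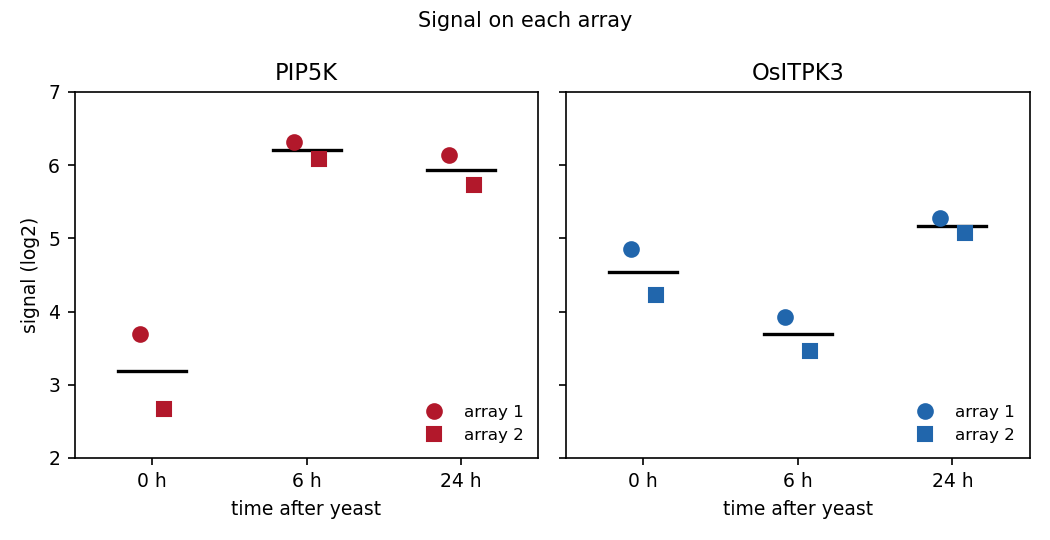
Log2 signal of PIP5K and OsITPK3 (vertical axis) on the 2 arrays of each time (horizontal axis). Points are single arrays and black bars their means. PIP5K lies at 2.67 to 3.70 at 0 h and at 5.72 to 6.32 on the 4 treated arrays, and OsITPK3 lies lowest at 6 h (3.46 and 3.93) and highest at 24 h (5.07 and 5.27).

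At 6 h PIP5K averaged 6.21 ± 0.16, against 3.18 ± 0.73 at 0 h (SD, n = 2 arrays each), a log2 difference of 3.02 ± 0.40 (SE of the limma fit) or 8.13-fold. Each 6 h array exceeded each 0 h array, by 2.39 to 3.65. It ranked 1st among the 1948 genes with a symbol and the 11th among all 14662 genes. Both 6 h arrays lay above both 0 h arrays for 34.3% of genes. The choice of PIP5K used this comparison, so its ranks and the side on which it lies are no result. Relative to the median difference of all genes, which was 0.20 as deposited, 0.10 after quantile normalization and 0.08 after cyclic loess, PIP5K was higher by 2.83, 2.73 and 2.36.

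At 24 h PIP5K averaged 5.93 ± 0.29, against 3.18 ± 0.73 at 0 h (SD, n = 2 arrays each), a log2 difference of 2.75 ± 0.40 (SE) or 6.72-fold. Pairs of arrays differed by 2.03 to 3.47. The gene ranked 6th among those with a symbol and 29th among all genes. In this comparison 42.6% of genes had both 24 h arrays above both 0 h arrays. PIP5K was chosen with these values known, so its ranks and its side are again no result. Between the treated times the arrays overlapped, and the 24 h mean differed from the 6 h mean by -0.28 ± 0.40 (SE), less than the standard error. That standard error pools the spread of all 3 times, which was widest at 0 h. In a fit to only the 4 arrays of the compared times it was 0.287, about the size of the difference. PIP5K was thus at a similar signal at 6 h and 24 h within the spread of these arrays, though this does not show that the times were equal.

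The size of the PIP5K difference depends on which control array it is set against. The gap between the 2 control arrays was 1.03 for PIP5K, wider than for 83.6% of probe sets, whose median gap was 0.45. Without the first control array the difference was 3.54 at 6 h and 3.26 at 24 h, and without the second it was 2.51 and 2.23. At 2.67 the second control array read below its own array median of 2.93. How far such a signal lies above background is unknown here, and the fold is open to that limit.

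OsITPK3 followed another course, with its lowest signal at 6 h and its highest at 24 h. ITPK enzymes phosphorylate inositol trisphosphate and, in Arabidopsis, also take part in making inositol pyrophosphates. The log2 signal was 4.85 and 4.23 on the 0 h arrays, 3.93 and 3.46 on the 6 h arrays and 5.27 and 5.07 on the 24 h arrays. No array of one time overlapped with those of another. The order of the means was 24 h, 0 h and 6 h.

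At 6 h OsITPK3 averaged 3.69 ± 0.34, against 4.54 ± 0.44 at 0 h (SD, n = 2 arrays each), a log2 difference of -0.85 ± 0.345 (SE). The nearest pair of arrays differed by only 0.30. In this comparison 14.6% of genes had both 6 h arrays below both 0 h arrays. At 24 h OsITPK3 averaged 5.17 ± 0.15, against 4.54 ± 0.44 at 0 h (SD, n = 2 arrays each), a difference of 0.63 ± 0.345 (SE) or 1.55-fold, with a nearest pair 0.22 apart. Both 24 h arrays lay above both 0 h arrays for 42.6% of genes, and the median difference of all genes was 0.265. Among all 14662 genes OsITPK3 ranked 679th from the lowest at 6 h and 4696th from the highest at 24 h.

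The widest separation for OsITPK3 was between the treated times. The 24 h mean of 5.17 ± 0.15, against 3.69 ± 0.34 at 6 h (SD, n = 2 arrays each), was 1.48 ± 0.345 higher (SE) or 2.78-fold, and every pair of arrays differed by at least 1.14. It ranked 3rd among genes with a symbol and 22nd among all genes. Both 24 h arrays lay above both 6 h arrays for 19.3% of genes. Over the whole array, 0 of 41770 probe sets, or 0%, passed between 24 h and 6 h (limma, Benjamini-Hochberg adjusted p under 0.05), and 1097, or 2.63%, had an unadjusted p under 0.05. As deposited, the arrangement of OsITPK3, with both 6 h arrays below and both 24 h arrays above both control arrays, was found in 79 genes, or 0.539%, while both treated times stood above the controls, as for PIP5K, in 28.9%. OsITPK3 was chosen with its course known, so its ranks and its place in these counts are no result.

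The scaling of the arrays decides the side of 0 h on which OsITPK3 lay at 24 h. After quantile normalization its signal was 5.22 and 4.59 at 0 h, 3.77 and 3.59 at 6 h and 4.99 and 4.84 at 24 h, so that the 24 h arrays fell between the control arrays. The difference from 0 h was then -1.22 at 6 h and 0.01 at 24 h. After cyclic loess it was -1.35 at 6 h and -0.03 at 24 h, where the sign turned. The 24 h minus 6 h difference was 1.23 and 1.33 under these settings, and so the lower signal at 6 h held in each scaling tried while the higher signal at 24 h than at 0 h did not. Without the first control array the difference at 6 h was -0.54 and without the second -1.16, and at 24 h these values were 0.94 and 0.32. Without the second 6 h array it was -0.61 at 6 h. The 4 green shoot markers split at 6 h. Differences from 0 h were -1.06 for CAB1R and -0.75 for CAB2R, both light-harvesting chlorophyll protein genes, 0.61 for GOX and 0.43 for OsrbcS. The 24 h minus 6 h differences were 0.99 for CAB1R, 0.35 for CAB2R, 0.18 for GOX and -0.20 for OsrbcS. All 5 root markers read higher at 6 h than at 0 h, with a median difference of 0.72, and lower at 24 h than at 6 h. Of all genes 61.4% read higher at 6 h than at 0 h, with a median difference of 0.20, and 55.6% read higher at 24 h than at 6 h. None of these 9 markers passed (limma adjusted p under 0.05), and 2 root markers and CAB1R had an unadjusted p under 0.05 at 6 h. By that unadjusted p 19% of all genes were higher and 4.27% lower at 6 h. For 24 h minus 6 h CAB1R was higher and OsAMT1;2 lower by the same measure. Of the 14662 genes 312 were higher and 162 lower there. The part of these markers in the OsITPK3 values was not tested.

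**Figure D2:**
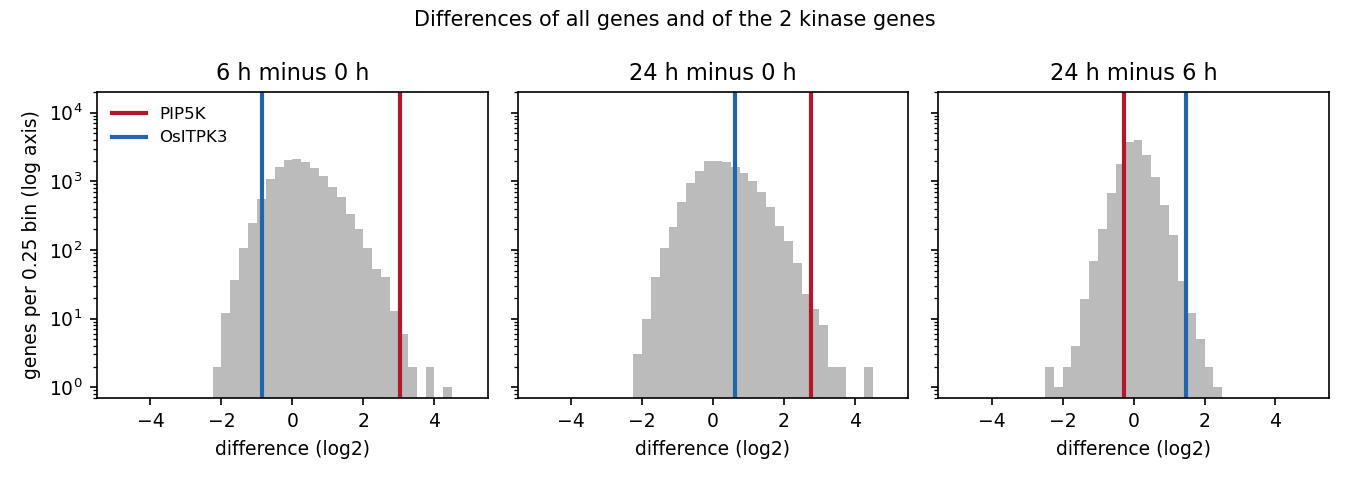
Number of genes (vertical log axis) by log2 difference in bins of 0.25 (horizontal axis) for the 3 comparisons, with PIP5K and OsITPK3 as lines. PIP5K lies in the right tail against 0 h (3.02 at 6 h, 2.75 at 24 h) and near the centre between the treated times (-0.28), whereas OsITPK3 lies in the right tail only between the treated times (1.48).

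Set side by side, the kinase genes differed most at 6 h, where PIP5K read 3.02 and OsITPK3 -0.85 against the same control arrays. At 24 h both read higher than at 0 h as deposited, by 2.75 and 0.63. The 24 h minus 6 h difference was -0.28 for PIP5K and 1.48 for OsITPK3. At all 3 times the first array read above the second for both genes, by 0.21 to 1.03. After subtracting each gene's mean, their profiles over the 6 arrays had a root-mean-square difference of 1.59, against a median of 1.30 between PIP5K and the other 1947 genes with a symbol.

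The other genes of inositol signalling were taken from 5 lists of symbols, of which 4 held measured genes besides PIP5K and OsITPK3, 30 genes in all. Genes were counted as risen or fallen at a limma adjusted p under 0.05 over all 41770 probe sets. At 6 h 2 of the 30 rose, 0 fell and 28 did not pass, while 2.09% of all genes rose and 0.102% fell. At 24 h again 2 rose, 0 fell and 28 did not pass, with 2.97% and 0.109% of all genes. By unadjusted p under 0.05, 9 were higher and 0 lower at 6 h, beside 19% and 4.27% of all genes, and 10 were higher and 1 lower at 24 h, beside 22.1% and 3.94%. The median difference was 0.355 at 6 h and 0.45 at 24 h, against 0.20 and 0.265 over all genes, and after quantile normalization it was 0.28 and 0.215, against 0.10 and 0.10. In the list of phosphoinositide kinases and phosphatases PIP5K was the only gene matched, so no lipid kinase of the same kind could be set beside it by name. The lists were matched by symbol or synonym, and only 1948 of the 14662 genes have a symbol. Genes of these families without a name could not be listed, so the lists do not show all that the array measures.

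**Figure D3:**
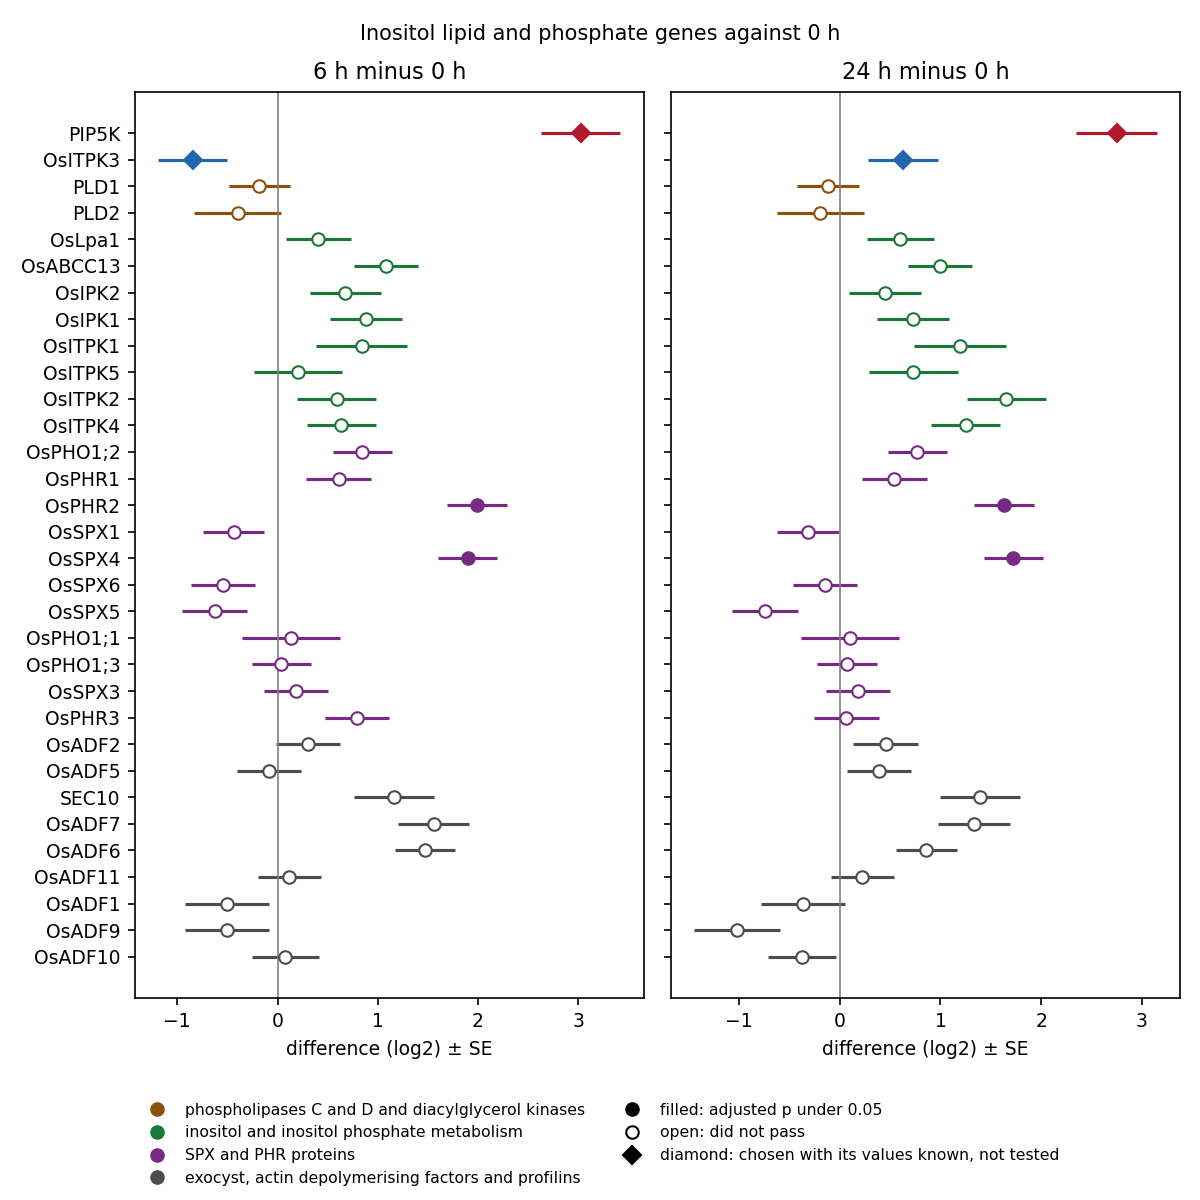
Log2 difference from 0 h with its standard error (horizontal axis) for PIP5K, OsITPK3 and the 30 listed genes (rows), at 6 h on the left and 24 h on the right. Filled circles passed the threshold, open circles did not, and diamonds are the untested kinase genes. OsPHR2 and OsSPX4 are filled at both times, at 1.63 to 1.99. OsITPK3 is the only one of the 5 matched ITPK genes left of 0 at 6 h as deposited. After quantile normalization or cyclic loess 1 of the other 4 was too.

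Phospholipases cut or modify membrane lipids, and phospholipase D makes phosphatidic acid, an activator of PIP5K enzymes known from plants and animals. By symbol or synonym the list matched PLD1 and PLD2 and no phospholipase C. PLD1 read 8.20 to 8.64 over all arrays and differed by -0.18 ± 0.305 at 6 h and -0.12 ± 0.305 at 24 h (SE). PLD2 differed by -0.40 ± 0.43 and -0.19 ± 0.43. Neither passed (0 with an unadjusted p under 0.05), and as deposited each of these differences was smaller than its standard error. For both genes that depends on the scaling. PLD1 read -0.44 ± 0.27 at 6 h and -0.35 ± 0.27 at 24 h with quantile normalization, and -0.50 ± 0.274 and -0.43 ± 0.274 with cyclic loess. PLD2 read -0.90 ± 0.344 at 6 h and -0.84 ± 0.344 at 24 h with quantile normalization, and -0.98 ± 0.355 and -0.88 ± 0.355 with cyclic loess. Neither gene passed under these scalings.

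The 8 genes of inositol phosphate metabolism besides OsITPK3 all read higher than at 0 h at both times as deposited, when 61.4% of all genes did so at 6 h and 64.3% at 24 h, and 0 passed. By unadjusted p under 0.05, 2 were higher at 6 h and 4 at 24 h, beside 19% and 22.1% of all genes. Their median difference was 0.66 at 6 h and 0.86 at 24 h as deposited, 0.475 and 0.275 with quantile normalization and 0.30 and 0.20 with cyclic loess. After quantile normalization and after cyclic loess 6 of the 8 were higher and 2 lower at each time, so a common direction depends on the scaling.

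Among them the other 4 ITPK genes matched by name stood above their 0 h means at 6 h as deposited. OsITPK3 stood below its own. OsITPK2, also known as DSM3 and linked to drought tolerance in rice, had signals of 2.43 and 3.16 at 0 h, 3.75 and 3.02 at 6 h and 4.66 and 4.24 at 24 h. Its arrays at 6 h overlapped with those at 0 h, and the 24 h arrays lay above both. It differed by 0.59 ± 0.40 at 6 h and 1.66 ± 0.40 at 24 h (SE; limma adjusted p = 0.453 and 0.074) and did not pass. OsITPK4 had 2.495 and 2.52 at 0 h, 3.06 and 3.23 at 6 h and 3.37 and 4.14 at 24 h. Its arrays did not overlap between any times, with differences from 0 h of 0.64 ± 0.34 and 1.25 ± 0.34 (adjusted p = 0.351 and 0.0981). Both 0 h signals of OsITPK4 lay below the array median, at percentiles 34.9 and 34.6.

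OsITPK1 had 4.75 and 3.33 at 0 h, 4.89 and 4.88 at 6 h and 5.08 and 5.39 at 24 h. The second control array alone was low, and the differences were 0.84 ± 0.46 and 1.19 ± 0.46 (adjusted p = 0.357 and 0.189). Without that array they were 0.13 and 0.48, and without the first control array 1.55 and 1.90, where OsITPK1 passed at both times. OsITPK2 without the first control array differed by 0.22 at 6 h and without the second by 0.96. OsITPK5, named after its values were seen so that all matched ITPK genes are given, differed by 0.20 ± 0.44 and 0.73 ± 0.44. Its 6 h arrays (4.84 and 3.74) overlapped with the control arrays (4.49 and 3.69). Between the treated times the 24 h mean was above the 6 h mean for each of these 4 genes, by 0.36 to 1.07, and for OsITPK3 by 1.48. At 24 h all 4 read above 0 h in each of the 4 scalings, with a median of 1.22 as deposited and 0.81 after cyclic loess. At 6 h 1 of the 4 read below 0 h after quantile normalization and after cyclic loess. Whether OsITPK3 differs from the other ITPK genes was not tested, since it was chosen for its course.

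The other named genes of the list act before or after the ITPK step. OsABCC13, the vacuolar phytate transporter also called OsMRP5, had 4.68 and 4.72 at 0 h, 5.83 and 5.74 at 6 h and 5.98 and 5.41 at 24 h. The treated arrays lay above both control arrays, by 1.08 ± 0.315 at 6 h and 1.00 ± 0.315 at 24 h (SE), without passing (limma adjusted p = 0.124 and 0.131). With quantile normalization they were 0.51 and 0.34, and with cyclic loess 0.50 and 0.31. OsIPK1, the kinase that completes phytate, differed by 0.88 ± 0.36 and 0.73 ± 0.36, against 0.44 and 0.15 with quantile normalization and 0.32 and 0.029 with cyclic loess. OsIPK2, an inositol polyphosphate kinase upstream of it, differed by 0.68 ± 0.36 and 0.45 ± 0.36. Its 6 h value became 0.087 after quantile normalization and 0.09 after cyclic loess, and its 24 h value turned to -0.22 after quantile normalization and to -0.24 after cyclic loess.

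The list of SPX and PHR proteins holds the readers of inositol pyrophosphates. In rice SPX proteins that bind these molecules hold back PHR factors, the activators of phosphate starvation genes, and PHO1 proteins carry phosphate out of cells. Of its 11 genes 2 rose at each time, OsPHR2 and OsSPX4, 0 fell and 9 did not pass. Of all genes 2.09% rose at 6 h and 2.97% at 24 h. By unadjusted p under 0.05, 4 of the 11 were higher at 6 h and 3 at 24 h, beside 19% and 22.1% of all genes. The median difference of the 11 was 0.18 at 6 h and 0.10 at 24 h, below that of all genes. Relative to all genes the median was -0.01 and -0.17 as deposited, 0.18 and 0.22 with quantile normalization and 0.26 and 0.27 with cyclic loess, so its side depends on the scaling. These risers were known when the list was written and are no independent evidence.

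OsPHR2 had 4.27 and 4.12 at 0 h, 6.33 and 6.03 at 6 h and 5.94 and 5.70 at 24 h. It rose by 1.99 ± 0.30 at 6 h and 1.63 ± 0.30 at 24 h (SE; limma adjusted p = 0.0289 and 0.041). OsSPX4, a cytoplasmic inhibitor of OsPHR2, had 2.73 and 2.65 at 0 h, 4.77 and 4.41 at 6 h and 4.43 and 4.41 at 24 h. It rose by 1.90 ± 0.295 and 1.73 ± 0.295 (adjusted p = 0.0321 and 0.0368). Its 0 h signals lay below the array median, at percentiles 44.2 and 39.5, and how far they lie above background is unknown. The 24 h minus 6 h difference was -0.36 ± 0.30 for OsPHR2, with both 24 h arrays below both 6 h arrays. For OsSPX4 it was -0.17 ± 0.295, with overlapping arrays as for PIP5K. Neither gene passed between these times, which does not show that the times were equal. Neither passed at either time after quantile normalization (1.499 and 1.05 for OsPHR2, 1.94 and 1.64 for OsSPX4), after cyclic loess, or without any 1 of the 4 treated arrays. Neither passed in a fit to only the 4 arrays of the compared times, nor at 6 h with array weights. OsPHR2 at 24 h did not pass with the replicate block or without the second control array.

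Among the 9 that did not pass, the phosphate exporter OsPHO1;2 differed by 0.85 ± 0.29 at 6 h and 0.77 ± 0.29 at 24 h (SE; limma adjusted p = 0.175 and 0.186), and by 0.43 and 0.34 after cyclic loess. OsPHR1 differed by 0.61 ± 0.325 and 0.54 ± 0.325, and the 24 h value turned to -0.14 after quantile normalization and after cyclic loess. OsPHR3 differed by 0.79 ± 0.32 at 6 h and 0.07 ± 0.32 at 24 h, at signals of 1.67 to 2.72, below the array median on all 6 arrays. The inhibitor OsSPX5 differed by -0.63 ± 0.325 and -0.74 ± 0.325 at signals of 2.17 to 3.27.

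Some exocyst subunits and actin depolymerising factors bind phosphatidylinositol bisphosphate in plants or animals. Whether the proteins of the genes measured here bind it was not tested. The 9 genes matched by name are SEC10, an exocyst subunit, and 8 ADF genes, whose proteins sever actin filaments. Of the 9 genes 0 passed at either time. By unadjusted p under 0.05, 3 were higher at 6 h, beside 19% of all genes. At 24 h 3 were higher and 1 lower by that p, beside 22.1% and 3.94% of all genes. OsADF6 had 3.04 and 3.26 at 0 h, 4.63 and 4.62 at 6 h and 4.19 and 3.82 at 24 h. Its treated arrays did not overlap with the controls, with differences of 1.47 ± 0.30 and 0.86 ± 0.30 (SE; limma adjusted p = 0.058 and 0.159), of which the 24 h value became 0.36 after cyclic loess. OsADF6 passed at 6 h with arrays centred on their medians (1.59). OsADF7 differed by 1.56 ± 0.36 and 1.34 ± 0.36 (adjusted p = 0.0729 and 0.0934).

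SEC10 had 3.48 and 4.02 at 0 h, 5.41 and 4.41 at 6 h and 5.12 and 5.16 at 24 h. It differed by 1.16 ± 0.40 and 1.40 ± 0.40 (SE; limma adjusted p = 0.172 and 0.107), with treated arrays above both control arrays, and by 0.63 and 0.72 after cyclic loess. OsADF7 at 24 h became 0.72 after cyclic loess. OsADF9 differed by -0.50 ± 0.42 and -1.02 ± 0.42, OsADF2 by 0.30 ± 0.32 and 0.45 ± 0.32 and OsADF5 by -0.09 ± 0.32 and 0.39 ± 0.32. With quantile normalization OsADF5 read -0.62 and -0.23 and OsADF2 read 0.016 and 0.20, so that OsADF5 lay on the other side of 0 at 24 h. The ADF genes thus lay on both sides of 0 h.

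Genes with profiles most like PIP5K were ranked by the root-mean-square difference of log2 signal over the 6 arrays, after subtracting each gene's mean. The 5 nearest of 1947 genes with a symbol were OsCIPK15, a kinase regulated by calcium sensors (0.22), MYBAS1, a MYB factor (0.33), AC2, also named ACT2 in RefSeq (0.35), OsPP2C39, a protein phosphatase (0.37), and SPL1 (0.38). OsCIPK15 had 4.33 and 3.76 at 0 h, 6.998 and 6.54 at 6 h and 6.97 and 6.74 at 24 h. All 5 were higher at both treated times, by 2.22 to 2.91 at 6 h and 1.96 to 2.90 at 24 h. Each also read lower on the second control array than on the first. The genes were picked for likeness over these same arrays, so these directions follow from the choice and are no result. The other probe set of MYBAS1 gave 2.44 and 2.34. Among numbered genes LOC4325070 (0.17) and LOC4327002 (0.17) were nearest, and the other probe set of LOC4327002 went the other way, at -1.76 and -1.03.

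Genes most like OsITPK3 were OsEXP13, an expansin (0.30), OsHAK22, a potassium transporter (0.31), OsEXPB16, a beta-expansin (0.32), OsHox1, a homeodomain-leucine zipper factor (0.33), and OsTrx16, a thioredoxin (0.33). The median distance of genes with a symbol was 0.76. OsHAK22 had 2.92 and 3.08 at 0 h, 2.18 and 2.07 at 6 h and 3.19 and 3.48 at 24 h. All 5 read lower at 6 h than at 0 h, by -0.14 to -0.89, and higher at 24 h than at 6 h, by 0.81 to 1.21. These directions too follow from the choice of the genes. The nearest numbered genes were LOC9268771 (0.19) and LOC4337008 (0.19), with 24 h minus 6 h differences of 1.55 and 1.11.

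**Figure D4:**
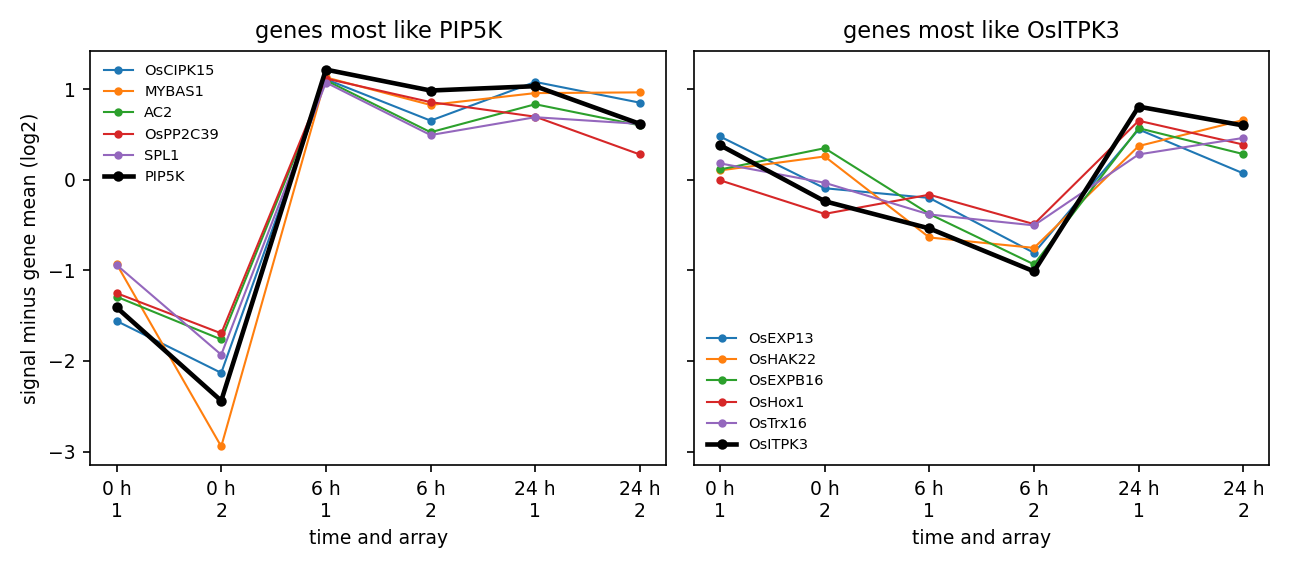
Log2 signal minus the gene's mean (vertical axis) on the 6 arrays (horizontal axis) for PIP5K, OsITPK3 (black) and the 5 genes with a symbol most like each. Lines only join the arrays of a gene. The genes on the left stay low on both 0 h arrays and high on the 4 treated ones, and those on the right are low at 6 h.

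**Figure D5:**
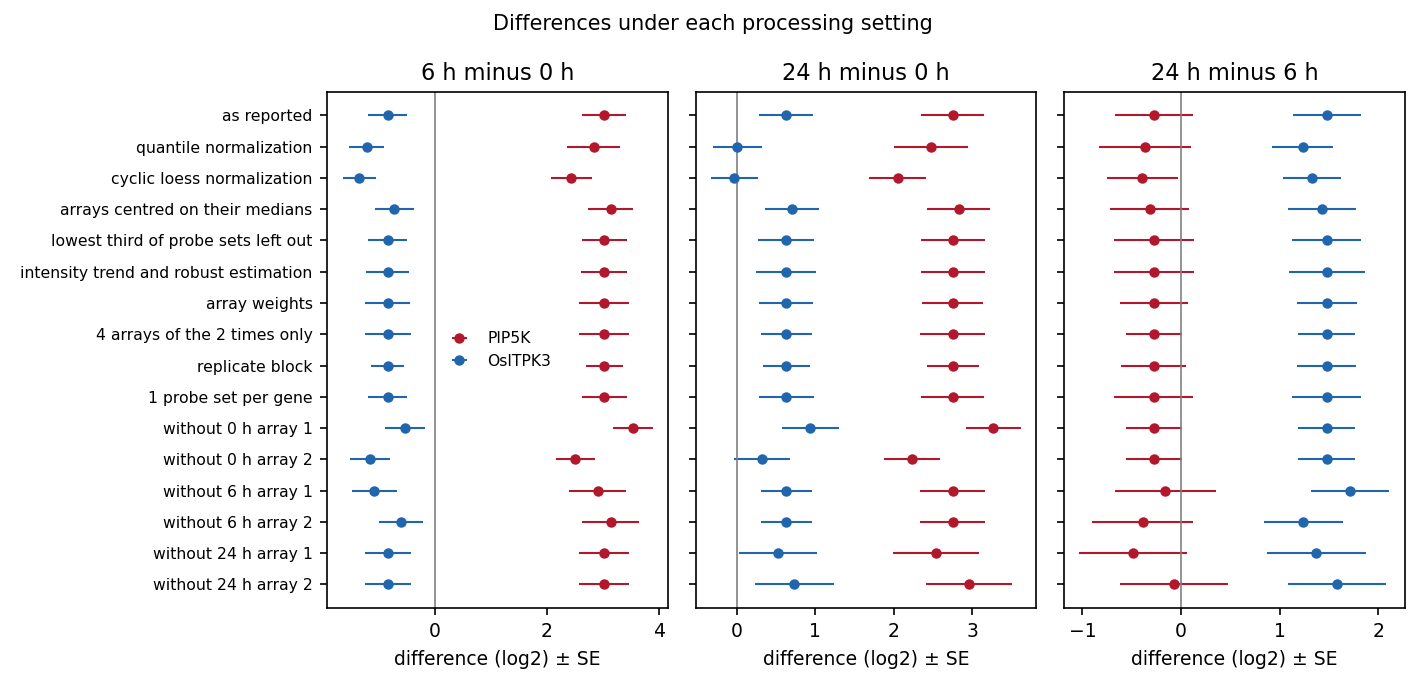
Log2 difference with its standard error (horizontal axis) of PIP5K and OsITPK3 under each processing setting (rows) for the 3 comparisons. PIP5K stays between 2.44 and 3.54 at 6 h and between 2.05 and 3.26 at 24 h, while OsITPK3 at 24 h reaches 0.01 after quantile normalization and -0.03 after cyclic loess.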

How the data were processed

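Rice root RNA was hybridised to Affymetrix arrays, 2 at each of 3 times. The authors deposited 1 table of summarised signals per probe set, read here as log2 from their range, and the tool is Affymetrix Expression Console per the submitters' processing notes. Its version and its background, summarisation and normalization steps were not stated in any source used here.

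Of 41770 probe sets 15299 had 1 gene, 436 several and 26035 none in the platform annotation, and 14661 of 14662 genes were found by number in RefSeq assembly ASM3414082v1, which gave symbols for 1948. One probe set per gene, the one with the highest mean, was used. A linear model with a mean per time was fitted with limma 3.58.1 in R 4.3.3 to all 6 arrays (3 residual and 5.08 prior degrees of freedom), with Benjamini-Hochberg adjustment of p over all of the probe sets and a threshold of 0.05. The fit was tested on simulated data. Python 3.11.15 made the tables and plots.

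The genes and lists were chosen with earlier results of these data known. Lists were matched by symbol, and 2 matches, signal peptide peptidases that share a synonym with inositol monophosphatase, were dropped. Up to 6 genes per list are named, those past the threshold and then those with the smallest unadjusted p against 0 h, and for each kinase gene the 5 genes with a symbol and the 2 numbered genes nearest in profile. Pearson coefficients with these are not printed, because control and treated arrays form separate clusters. Alternatives covered normalization, centring, a filter on dim probe sets, variance models, array weights, the arrays fitted, a replicate block and each array left out. For the named list genes and the single lists these alternatives were added after seeing the data.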

Additional observations from a re-analysis of the deposited data

Results flagged for a closer look

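OsITPK3 drew attention because both 6 h arrays lay below and both 24 h arrays above both control arrays, so that the 2 times moved to opposite sides of 0 h. The 24 h minus 6 h difference was 1.48 on the log2 scale. The difference between the times was not tested for this gene, which was chosen with its values known, and after quantile normalization the 24 h arrays no longer lay above both control arrays.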

How the results depend on the processing

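No difference of PIP5K or OsITPK3 changed sign, apart from OsITPK3 at 24 h, under the 15 settings tried for each. After cyclic loess PIP5K differed from 0 h by 2.44 at 6 h and 2.05 at 24 h. OsITPK3 differed by -1.22 at 6 h and 0.011 at 24 h after quantile normalization, and by -1.35 and -0.027 after cyclic loess. With each array left out in turn, PIP5K ran from 2.51 to 3.54 at 6 h, 2.23 to 3.26 at 24 h and -0.48 to -0.07 between the treated times, and OsITPK3 from -1.16 to -0.54, 0.32 to 0.94 and 1.24 to 1.71.

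Probe sets past the threshold numbered 641 at 6 h and 925 at 24 h. They became 81 and 24 after quantile normalization, 119 and 52 after cyclic loess, 187 and 1502 with array weights, and 81 and 0 with the 4 arrays of the compared times. At 6 h they were 1146 with arrays centred on their medians and 1062 with an intensity trend and robust estimation. With 1 array left out they ran from 0 to 2249 at 6 h and from 0 to 2793 at 24 h (2249 and 2793 without the first control array, 1018 and 1326 without the second, 0 without either 6 h array at 6 h and 0 without any treated array at 24 h, 81 at 6 h without either 24 h array), the lone array being assumed to vary like the others. Of the 30 pathway genes 2 passed at each time. This became 0 at both times after quantile normalization, after cyclic loess and with the 4 arrays of the compared times, and 0 at 6 h with array weights. With 1 array left out it ran from 0 to 3 at each time.

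With the replicate block 384 probe sets passed at 6 h and 570 at 24 h, and 1 pathway gene at 24 h. The labels do not say that equal numbers mark a pairing, and the deviations of equal-numbered arrays correlated at 0.05 (6 h with 0 h), 0.03 (24 h with 0 h) and 0.16 (24 h with 6 h) across probe sets.

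Signs also turned for some listed genes. With an array left out, PLD2 ran from -1.03 to 0.24 (-0.90 after quantile normalization and -0.98 after cyclic loess with all arrays), PLD1 from -0.37 to 0.0082, OsADF9 from -1.13 to 0.13 and OsADF5 from -0.36 to 0.19 at 6 h, and PLD1 from -0.31 to 0.071 and OsPHR3 from -0.24 to 0.37 at 24 h. After quantile normalization and cyclic loess at 24 h, OsIPK2 read -0.22 and -0.24, OsPHR1 -0.14 under both, and OsADF5 -0.23 and -0.26. OsADF5 read 0.034 at 6 h with arrays centred on their medians. The cause was not tested. Protein relatives of the kinases were not analysed here, and averaging probe sets of a gene was not run since each kinase gene has 1. How far dim signals lie above background is unknown.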
